A study of Homo sapiens with 4 samples.

Results

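Integrins, laminins, collagens and 4 matrix ligands were followed in DU145 cells, a human prostate cancer cell line, after small interfering RNA (siRNA) transfection. The set was chosen by gene symbol: integrin alpha and beta subunits, laminin chains, collagen chains, and the ligands VTN, FN1, THBS1, TNC and SPARC. A gene also had to be listed in all 4 libraries with an average of at least 1 CPM (the read pairs on a gene scaled to the total of its library). The rule kept 52 of the 14149 genes that pass the same filter, out of 20474 genes listed in all 4 libraries. They comprise 18 integrins, 9 laminins, 21 collagens and 4 ligands. Of 69 symbols of these families, 14 were under the average of 1 CPM and 3 were missing from at least 1 table, among them SPARC, which is therefore not a member. ITGA10 was the member nearest the threshold, at an average of 1.13 CPM, and ITGAD lay just outside it, at 0.887 CPM.

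The 4 libraries came from cells given PTBP1 siRNA (2 libraries), DNMT3B-L siRNA (1 library) or control siRNA (1 library), each at 75 nM for 48 h. The PTBP1 siRNA libraries, called replicates 1 and 2, each used a different siRNA against PTBP1, a splicing repressor. DNMT3B is a DNA methyltransferase, and what the L in DNMT3B-L stands for is not explained by the labels. All 4 libraries share the same parental line and transfection reagent. Nothing states that the libraries came from separate cultures, so the tests measure only the spread between these libraries, which may be technical.

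Integrins are transmembrane receptors made of 1 alpha and 1 beta subunit, and the alpha subunit largely sets the ligand. They bind laminins and collagens of the basement membrane, the sheet on which epithelial cells sit, and glycoproteins such as fibronectin and vitronectin, often through the tripeptide RGD. Laminins are trimers of an alpha, a beta and a gamma chain, and collagens are trimers of chains wound into a triple helix. In the prostate, loss of the laminin receptor made of ITGA6 and ITGB4 from the basal side of glands is a known feature of carcinoma.

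The libraries held 24088975, 23163964, 22332245 and 22511596 read pairs (PTBP1 siRNA replicates 1 and 2, DNMT3B-L siRNA and control siRNA), so counting error is small except for genes of a few CPM. PTBP1 had 268 and 135 CPM in PTBP1 siRNA replicates 1 and 2, 982 CPM with DNMT3B-L siRNA and 928 CPM with control siRNA. DNMT3B had 8.43 and 13.1 CPM in the PTBP1 siRNA libraries, 5.46 CPM with DNMT3B-L siRNA and 9.77 CPM with control siRNA. The labelled cell type was checked with marker genes. Of the epithelial markers, KRT8 had 1264 and 656 CPM in the PTBP1 siRNA libraries, 1209 CPM with DNMT3B-L siRNA and 1444 CPM with control siRNA. The fibroblast markers PDGFRA, PDGFRB and THY1 and the endothelial markers PECAM1, CDH5 and VWF were all under 1 CPM in every library. The defining markers of cells that make most interstitial collagen were thus near 0, and in a bulk library fewer cells and less RNA per cell cannot be told apart.

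ITGB1 and ITGA3, subunits of a laminin receptor, were the most abundant integrins at the RNA level. Levels are compared between genes as average CPM per kb of exon. The length counts every annotated exonic base of a gene over all its transcripts, which can exceed that of its main RNA. It was 14678 bases for LAMA3 and 17315 for FN1, against 4688 for LAMB3, so the levels of LAMA3 and FN1 may be understated. ITGB1, the beta subunit shared by most integrins, averaged 192 CPM per kb and ITGA3, an alpha subunit that pairs with it to bind laminin, averaged 108 CPM per kb. The next integrins were ITGB5 at 25.7 and ITGA5 at 24.02 CPM per kb. Among laminins, LAMB3 averaged 101, LAMC1 65.8 and LAMB2 50.3 CPM per kb, whereas LAMA3 averaged 2.45 CPM per kb. COL18A1, a basement membrane collagen and the precursor of endostatin, led the collagens at 72.1 CPM per kb, before COL6A2 at 42.3 and COL6A1 at 32.3 CPM per kb. Of the ligands, THBS1 averaged 16.4 and FN1, the fibronectin gene, 0.376 CPM per kb. DU145 cells in all 4 libraries thus held far more RNA for basement membrane proteins than for fibronectin.

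**Figure D1:**
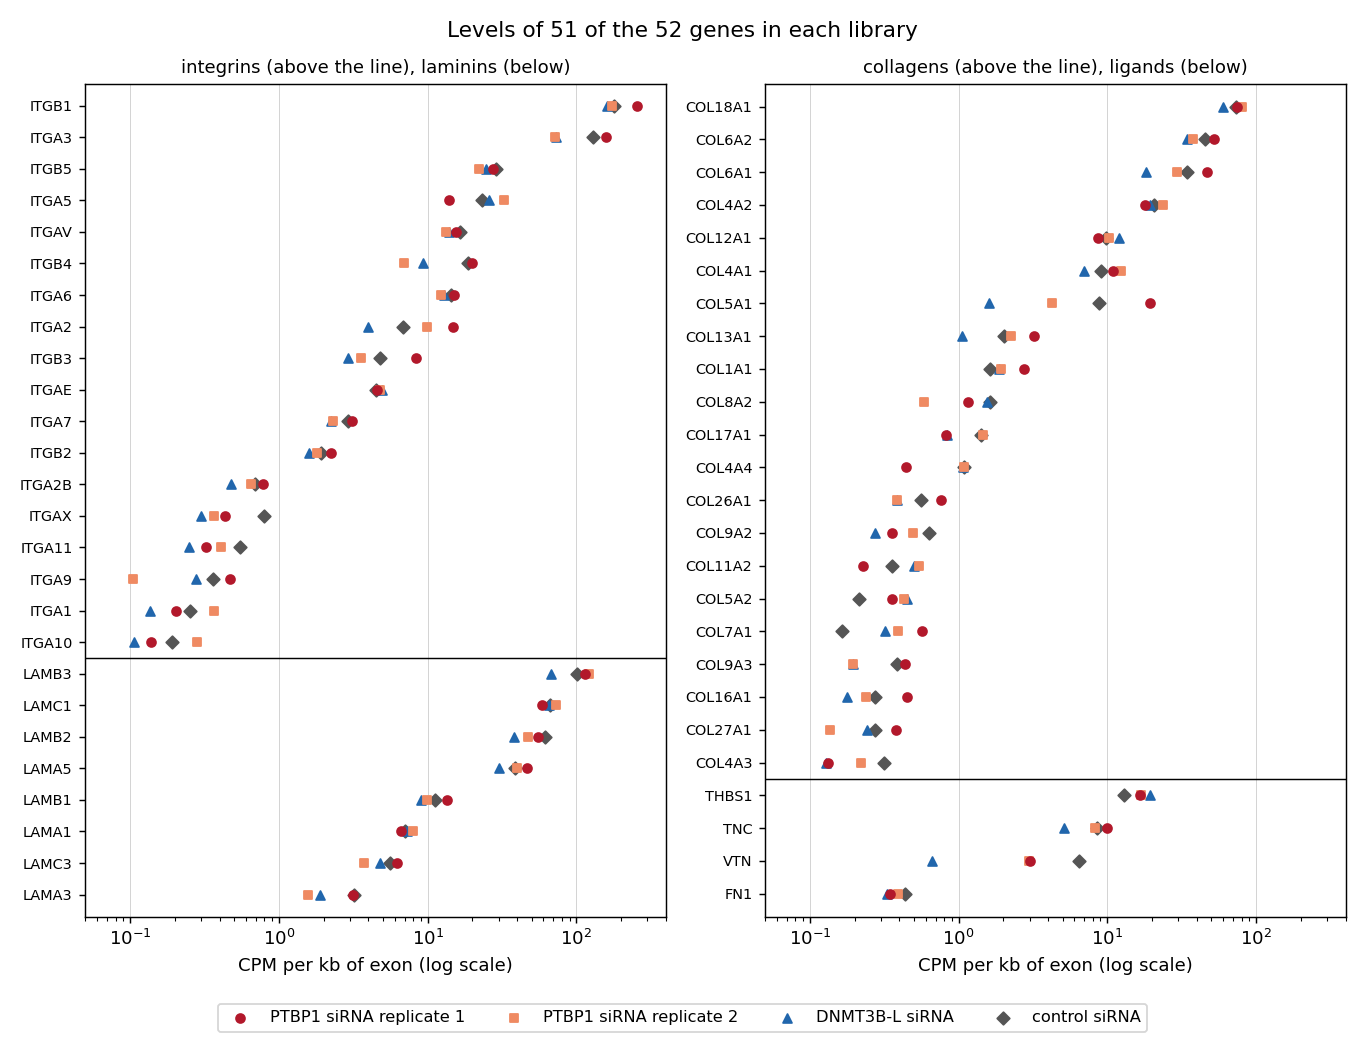
CPM per kb of exon (x axis, log scale) of 51 of the 52 genes in each of the 4 libraries, ordered within each family by the average level. ITGB1 and ITGA3 lead the integrins, LAMB3 the laminins and COL18A1 the collagens in the average, while COL5A1 and VTN show the widest spread between libraries.

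The members were spread more between libraries than most genes. The highest library was at least 2-fold of the lowest for 25 of the 52 members, against 18% of all 14149 genes, and the median of this ratio was 1.96 for members and 1.49 for all genes. Among the 37 members with an average of at least 5 CPM the count was 12, against 12.1% of the 11075 genes at that level. COL5A1 had the widest range, 12.1-fold, and ITGAE, the alpha subunit of an E-cadherin receptor, the narrowest at 1.09-fold. Because each ratio is between single libraries, this is a description and has no test.

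The shift was toward lower levels with DNMT3B-L siRNA. The log2 ratio of CPM + 1 to the control library was below 0 for 42 of 52 members with DNMT3B-L siRNA, against 46.8% of all genes, and its median was -0.35 for members and 0.03 for all genes. With PTBP1 siRNA replicate 1 the ratio was below 0 for 22 members (49.5% of all genes), with a median of 0.09 for members and 0.01 for all genes. With PTBP1 siRNA replicate 2 it was below 0 for 32 members (49.2% of all genes), with a median of -0.13 for members and 0.01 for all genes. The 3 ratios share the control library. In absolute order, 27 of the 52 members had their lowest value with DNMT3B-L siRNA, as did 24.7% of all genes, and 24 had their highest with PTBP1 siRNA replicate 1, as did 25.7% of all genes.

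The members have long exons and GC-rich transcripts. Their lower quartile of exon length, 6360 bases, was reached by 4695 of the 14149 genes, and that of transcript GC content, 49.2%, by 6062. Among the 1706 genes that reached both, 62.1% were below 0 with DNMT3B-L siRNA and the median log2 ratio was -0.12. The median of all members, also those under either cut, was -0.35. This stratum was chosen after the values had been seen, and the part of length and GC content in the shift was not tested.

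**Figure D2:**
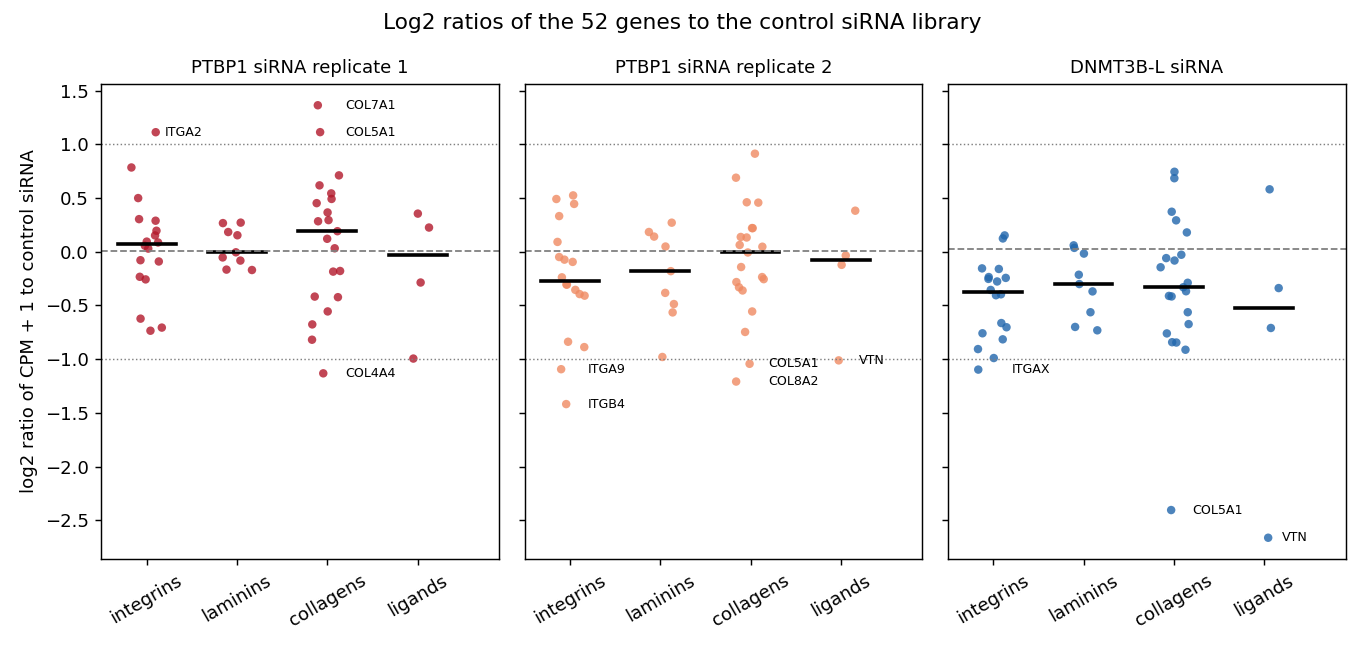
Log2 ratio of CPM + 1 of each of the 52 genes (points) to the control siRNA library, by family, for PTBP1 siRNA replicate 1, PTBP1 siRNA replicate 2 and DNMT3B-L siRNA. Black bars are family medians, the dashed line is the median of all 14149 genes and dotted lines mark 2-fold. All 4 family medians lie below the dashed line with DNMT3B-L siRNA, and VTN and COL5A1 lie lowest there.

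No member passed limma, a linear model fitted across all 14149 genes, at a Benjamini-Hochberg adjusted p under 0.05 in any of the 3 comparisons. For PTBP1 siRNA against control siRNA 0 of 52 members passed, against 0.00707% of all genes. There 4 members had an unadjusted limma p under 0.05, beside 2.55% of all genes. For DNMT3B-L siRNA against control siRNA 0 members passed, against 0% of all genes. There 5 members had an unadjusted limma p under 0.05, beside 3.09% of all genes. For PTBP1 siRNA against DNMT3B-L siRNA 0 members passed, against 0.00707% of all genes. There 8 members had an unadjusted limma p under 0.05, beside 5.37% of all genes. The single gene called in the PTBP1 siRNA comparisons was PTBP2, the paralog of PTBP1. It had 60.9 and 70.9 CPM with PTBP1 siRNA, 6.45 CPM with DNMT3B-L siRNA and 8.26 CPM with control siRNA, and its log2 fold change against control siRNA was 2.85 (limma adjusted p = 0.042). The edgeR test called 0 members in each comparison, and DESeq2 called 1 member, VTN, for DNMT3B-L siRNA against control siRNA. With a lone library on either side of the PTBP1 siRNA pair, only that pair gives a spread (1 residual degree of freedom), and it includes the difference between 2 siRNAs.

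By the simpler rule of a log2 ratio past 1 or -1 in a single library, 9 members stood out. With PTBP1 siRNA replicate 1, 3 members (COL5A1, COL7A1 and ITGA2) were at least 2-fold higher, beside 0.643% of all genes, and 1 member (COL4A4) was at least 2-fold lower, beside 1.57%. With PTBP1 siRNA replicate 2, 0 members were 2-fold higher, beside 0.516%, and 5 members (COL5A1, COL8A2, ITGA9, ITGB4 and VTN) were 2-fold lower, beside 1.68%. Past 2-fold with both PTBP1 siRNAs in the same direction were 0 members higher, beside 0.12% of all genes, and 0 members lower, beside 0.184%. With a pseudocount of 0.1 in place of 1, COL7A1 was past 2-fold higher and VTN past 2-fold lower with both PTBP1 siRNAs. With DNMT3B-L siRNA, 0 members were 2-fold higher, beside 0.403%, and 3 members (COL5A1, ITGAX and VTN) were 2-fold lower, beside 1.41%. COL5A1 was thus past 2-fold in opposite directions with the PTBP1 siRNAs. The counts of lower members depend on the pseudocount. At a pseudocount of 0.1, 3 members were 2-fold lower with replicate 1, 7 with replicate 2 and 6 with DNMT3B-L siRNA. At a pseudocount of 5, 0 were lower with replicate 1, 1 with replicate 2 and 2 with DNMT3B-L siRNA.

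The PTBP1 siRNAs differed from each other in several members. Replicate 1 was at least 2-fold above replicate 2 for 6 members (COL27A1, COL5A1, ITGA3, ITGA9, ITGB3 and ITGB4), beside 2.11% of all genes, and at least 2-fold below it for 2 members (COL4A4 and ITGA5), beside 1.67%. This comparison of 1 library with 1 was added after the values had been seen. Both PTBP1 siRNA libraries lay above the DNMT3B-L and control libraries for 8 members, a share of 15.4% against 15% of all genes. They lay below both for 2 members, among them COL8A2, a share of 3.85% against 16.4% of all genes. The count above is near the background.

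**Figure D3:**
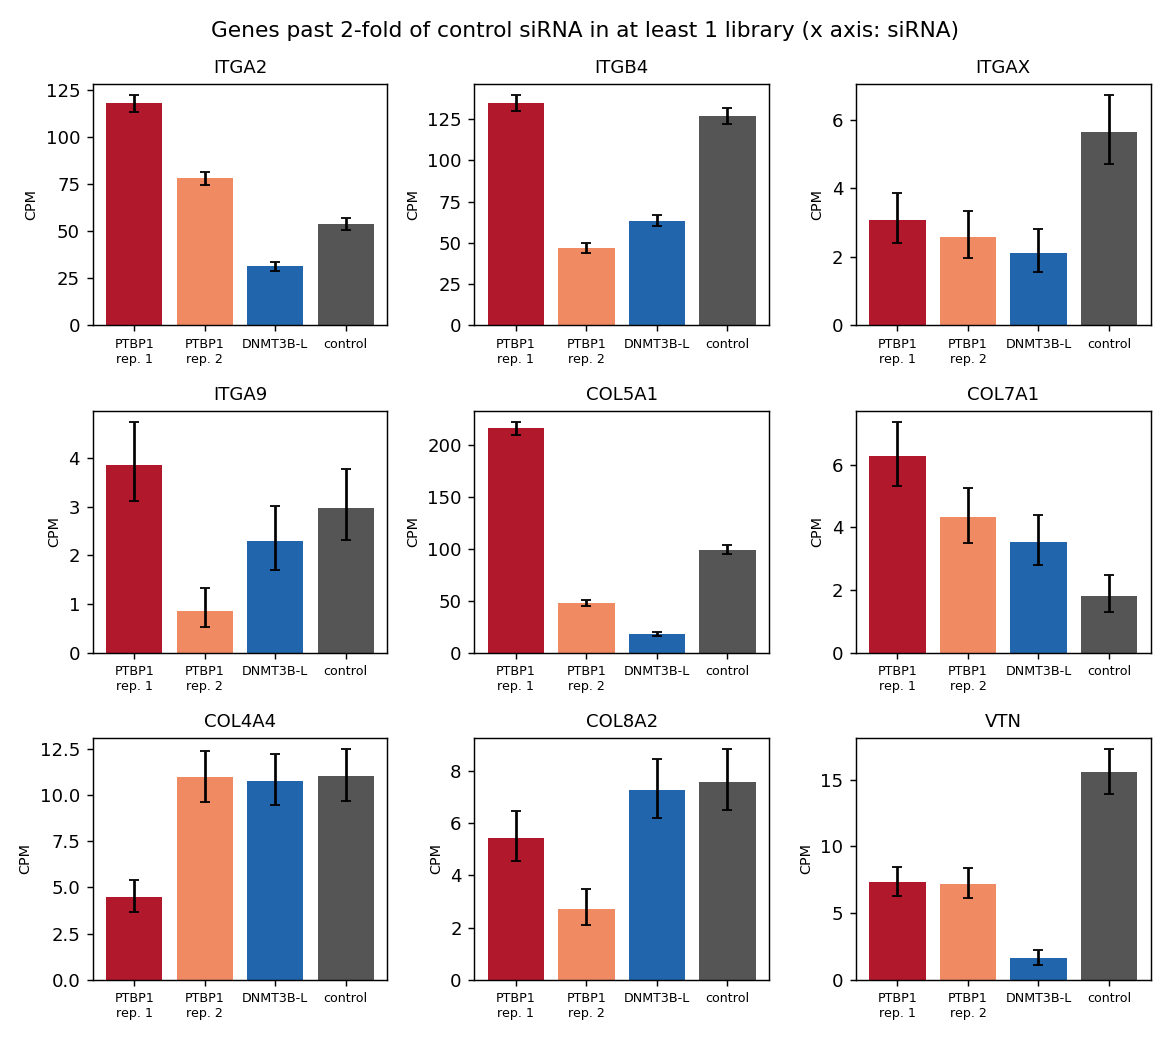
CPM (y axis, starting at 0) of the 9 genes past 2-fold of the control library in at least 1 library, for PTBP1 siRNA replicates 1 and 2, DNMT3B-L siRNA and control siRNA. Error bars are exact Poisson 95% intervals of counting error only. VTN is lower in all 3 targeting libraries than in the control library, whereas COL5A1 and ITGB4 differ between the PTBP1 siRNAs.

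Among the alpha subunits that bind collagen, ITGA2 was the most abundant. ITGA2, the alpha subunit of the collagen receptor integrin alpha2beta1 (chromosome 5, 52989326 to 53094779, plus strand, GRCh38), had 118 and 78.0 CPM with PTBP1 siRNA replicates 1 and 2, 31.4 CPM with DNMT3B-L siRNA and 53.9 CPM with control siRNA. The 95% counting intervals of these 4 libraries do not overlap, and both PTBP1 siRNA libraries were above the other libraries. Its log2 fold change was 1.58 (SE 0.34) for PTBP1 siRNA against DNMT3B-L siRNA and 0.82 (SE 0.34) for PTBP1 siRNA against control siRNA, with limma adjusted p of 0.411 and 1.0. ITGA1, ITGA10 and ITGA11, the other collagen-binding subunits, had at most 6.78 CPM in any library. Each was lowest with DNMT3B-L siRNA, and 4 of the 4 collagen-binding subunits had a log2 ratio to control below 0 there (median -0.73).

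The laminin-binding subunits ITGA3, ITGA6 and ITGA7 had log2 ratios to control below 0 with PTBP1 siRNA replicate 2 and DNMT3B-L siRNA (medians of -0.31 and -0.36) and above 0 with replicate 1 (median 0.10). ITGA3 had 1561 and 707 CPM in PTBP1 siRNA replicates 1 and 2, 718 CPM with DNMT3B-L siRNA and 1264 CPM with control siRNA. ITGA6, which pairs with ITGB4 in hemidesmosomes, the junctions that anchor epithelial cells to laminin, had 98.2 and 79.9 CPM with PTBP1 siRNA, 84.7 CPM with DNMT3B-L siRNA and 94.4 CPM with control siRNA. ITGB4 itself had 135 and 46.8 CPM with PTBP1 siRNA replicates 1 and 2, 63.4 CPM with DNMT3B-L siRNA and 127 CPM with control siRNA. ITGA3 and ITGB4 shared a split of libraries, with replicate 1 beside the control, while ITGA6 varied by 1.23-fold. ITGB4 against control siRNA had a log2 fold change of -0.67 (SE 0.49) for PTBP1 siRNA and -0.99 (SE 0.57) for DNMT3B-L siRNA, with limma adjusted p of 1.0 and 0.998. For ITGB4 with PTBP1 siRNA the sign rests on replicate 2, since the log2 ratio of replicate 1 alone was 0.087.

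The receptors of fibronectin and vitronectin did not move as a group. ITGA5, the alpha subunit of the main fibronectin receptor, had 106 and 249 CPM with PTBP1 siRNA replicates 1 and 2, 197 CPM with DNMT3B-L siRNA and 177 CPM with control siRNA, so that the PTBP1 siRNAs lay on opposite sides of the control. ITGAV, which pairs with ITGB3 or ITGB5 to bind vitronectin, had 127 and 109 CPM with PTBP1 siRNA, 114 CPM with DNMT3B-L siRNA and 135 CPM with control siRNA. Its partner ITGB5 had 177 and 142 CPM with PTBP1 siRNA, 158 CPM with DNMT3B-L siRNA and 187 CPM with control siRNA. Both were highest in the control library, with 1.24- and 1.32-fold between the extremes. ITGB3 had 36.9 and 15.6 CPM with PTBP1 siRNA, 12.9 CPM with DNMT3B-L siRNA and 21.0 CPM with control siRNA. In GENCODE v29, 51.6% of the exonic bases of ITGB3 are shared with the gene AC068234.1, so its values are uncertain.

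ITGB1 had 1528 and 1044 CPM with PTBP1 siRNA replicates 1 and 2, 966 CPM with DNMT3B-L siRNA and 1080 CPM with control siRNA. All 5 beta subunits had a log2 ratio to control below 0 with DNMT3B-L siRNA (median -0.24) and with PTBP1 siRNA replicate 2 (median -0.39), and 1 of the 5, ITGB5, with replicate 1. The pseudogene ITGB1P1, a near copy of ITGB1, was listed at 82.9 and 55.1 CPM with PTBP1 siRNA, 47.5 CPM with DNMT3B-L siRNA and 58.9 CPM with control siRNA, so part of the ITGB1 reads may stand there. The leukocyte subunit ITGAX had 3.07 and 2.59 CPM with PTBP1 siRNA, 2.105 CPM with DNMT3B-L siRNA and 5.64 CPM with control siRNA. ITGA9, a receptor for tenascin, had 3.86 and 0.863 CPM with PTBP1 siRNA, 2.28 CPM with DNMT3B-L siRNA and 2.98 CPM with control siRNA. Both rest on at most 127 read pairs in any library.

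Of the 9 laminins, 0 were past 2-fold of the control in any library. With DNMT3B-L siRNA 7 of 9 had a log2 ratio below 0 (median -0.30), beside 5 of 9 with each PTBP1 siRNA (medians of -0.0044 and -0.18 for replicates 1 and 2). LAMA5, the alpha chain of the laminins of most adult epithelia, had 671 and 575 CPM with PTBP1 siRNA, 430 CPM with DNMT3B-L siRNA and 555 CPM with control siRNA. LAMB2, its partner beta chain, had 376 and 324 CPM with PTBP1 siRNA, 260 CPM with DNMT3B-L siRNA and 422 CPM with control siRNA. LAMC1, the gamma chain common to most laminins, stayed between 494 CPM (PTBP1 siRNA replicate 1) and 614 CPM (replicate 2). LAMA5 and LAMB2 were thus lowest with DNMT3B-L siRNA and LAMC1 was not.

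LAMA3 and LAMB3, an alpha and a beta chain of epithelial laminins that bind hemidesmosomes, did not move together. LAMA3 had 46.5 and 23.1 CPM with PTBP1 siRNA replicates 1 and 2, 27.7 CPM with DNMT3B-L siRNA and 46.6 CPM with control siRNA, the same split of libraries as ITGA3 and ITGB4. LAMB3 had 536 and 570 CPM with PTBP1 siRNA, 319 CPM with DNMT3B-L siRNA and 472 CPM with control siRNA. LAMB3 was above both other libraries with both PTBP1 siRNAs and differed from DNMT3B-L siRNA by a log2 fold change of 0.79 (SE 0.29, limma adjusted p = 0.822). LAMA1, LAMB1 and LAMC3 varied by 1.20-, 1.49- and 1.67-fold between the extreme libraries.

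**Figure D4:**
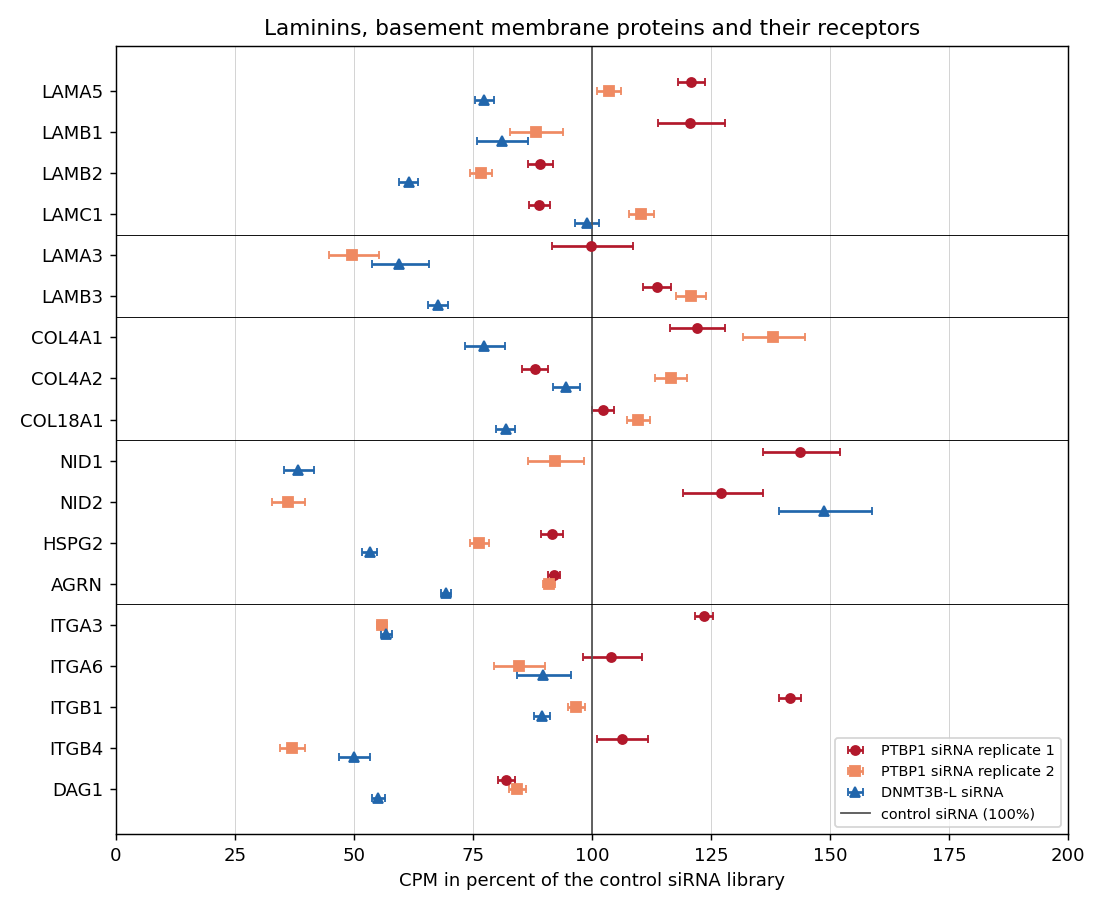
CPM in percent of the control siRNA library (x axis) for laminins, basement membrane collagens and linkers, and laminin receptors, with PTBP1 siRNA replicate 1, PTBP1 siRNA replicate 2 and DNMT3B-L siRNA. Bars are exact conditional binomial 95% intervals of counting error only. NID1 is at 38.3% with DNMT3B-L siRNA, and ITGA3 is at 55.9% with PTBP1 siRNA replicate 2 and 56.8% with DNMT3B-L siRNA, while ITGB4 is at 36.9% and 49.98% and LAMA3 at 49.7% and 59.4% in the same libraries.

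Further matrix receptors and basement membrane linkers, which are not members, varied in both directions. Of 15 such genes listed, 11 had a log2 ratio to control below 0 with DNMT3B-L siRNA (median -0.44), beside 6 and 12 with PTBP1 siRNA replicates 1 and 2. NID1, which links laminin to collagen IV, had 129 and 82.5 CPM with PTBP1 siRNA, 34.3 CPM with DNMT3B-L siRNA and 89.5 CPM with control siRNA. NID2, its paralog, had 87.1 and 24.7 CPM with PTBP1 siRNA, 102 CPM with DNMT3B-L siRNA and 68.5 CPM with control siRNA. The nidogens thus lay on opposite sides of the control with DNMT3B-L siRNA. HSPG2, the perlecan gene, had 504 and 419 CPM with PTBP1 siRNA, 293 CPM with DNMT3B-L siRNA and 550 CPM with control siRNA. The hyaluronan receptor CD44 had 460 and 174 CPM with PTBP1 siRNA, 172 CPM with DNMT3B-L siRNA and 261 CPM with control siRNA. By limma 0 of these 15 genes passed in any comparison.

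Among the collagens, COL5A1 stood apart in its range. COL5A1, a chain of collagen V that starts fibrils of collagen I (chromosome 9, 134641774 to 134844843, plus strand, GRCh38), had 216 and 47.6 CPM with PTBP1 siRNA replicates 1 and 2, 17.9 CPM with DNMT3B-L siRNA and 99.2 CPM with control siRNA. The 4 counting intervals do not overlap, and the ratio between the PTBP1 siRNAs was 4.54 (95% interval 4.25 to 4.84, counting error only). Its log2 fold change was -2.41 (SE 0.74) for DNMT3B-L siRNA against control siRNA, 2.44 (SE 0.64) for PTBP1 siRNA against DNMT3B-L siRNA and 0.04 (SE 0.64) for PTBP1 siRNA against control siRNA, with limma adjusted p of 0.998, 0.609 and 1.0. The value near 0 for PTBP1 siRNA is the mean of log2 ratios of 1.11 with replicate 1 and -1.04 with replicate 2. COL5A2, the partner chain of collagen V, had 2.66 and 3.19 CPM with PTBP1 siRNA, 3.36 CPM with DNMT3B-L siRNA and 1.60 CPM with control siRNA. It did not share the pattern of COL5A1. COL1A1, a chain of collagen I, had 27.0 and 18.9 CPM with PTBP1 siRNA, 18.4 CPM with DNMT3B-L siRNA and 16.1 CPM with control siRNA.

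Basement membrane collagens were uneven. COL4A1 and COL4A2 encode the chains of the common collagen IV trimer. COL4A1 had 162 and 183 CPM with PTBP1 siRNA, 103 CPM with DNMT3B-L siRNA and 133 CPM with control siRNA, and COL4A2 had 348 and 460 CPM with PTBP1 siRNA, 373 CPM with DNMT3B-L siRNA and 395 CPM with control siRNA. COL4A1 was above the other libraries with both PTBP1 siRNAs and COL4A2 with 1 of them. COL4A4, a chain of the collagen IV of kidney and other specialised basement membranes, had 4.48 and 10.97 CPM with PTBP1 siRNA replicates 1 and 2, 10.8 CPM with DNMT3B-L siRNA and 11.02 CPM with control siRNA. The library of PTBP1 siRNA replicate 1 alone stood apart for COL4A4, at 40.7% of the control. COL18A1 had 638 and 684 CPM with PTBP1 siRNA, 511 CPM with DNMT3B-L siRNA and 624 CPM with control siRNA. In GENCODE v29 the exons of COL18A1 overlap those of SLC19A1 on the opposite strand over 16.4% of their length, and nothing states whether the counting used strand.

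The collagen VI chains COL6A1 and COL6A2, which form beaded filaments at the border of the basement membrane, were lowest with DNMT3B-L siRNA. COL6A1 had 252 and 156 CPM with PTBP1 siRNA, 97.3 CPM with DNMT3B-L siRNA and 184 CPM with control siRNA. COL6A2 had 281 and 202 CPM with PTBP1 siRNA, 184 CPM with DNMT3B-L siRNA and 246 CPM with control siRNA. The control library lay between the PTBP1 siRNA libraries for both chains. The log2 fold change of COL6A1 was -0.91 (SE 0.40) for DNMT3B-L siRNA against control siRNA and 1.02 (SE 0.34) for PTBP1 siRNA against DNMT3B-L siRNA, with limma adjusted p of 0.998 and 0.789.

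Anchoring and membrane collagens included the member with the largest ratio to control. COL7A1, the anchoring fibril collagen below hemidesmosomes (chromosome 3, 48564073 to 48595267, minus strand, GRCh38), had 6.27 and 4.32 CPM with PTBP1 siRNA, 3.54 CPM with DNMT3B-L siRNA and 1.82 CPM with control siRNA. All 3 targeting libraries were above the control library, which held 41 read pairs. The log2 fold change for PTBP1 siRNA against control siRNA was 1.14 (SE 0.36, limma adjusted p = 1.0). COL13A1, a membrane-spanning collagen, had 18.9 and 13.3 CPM with PTBP1 siRNA, 6.22 CPM with DNMT3B-L siRNA and 11.95 CPM with control siRNA. COL17A1, a membrane-spanning collagen of hemidesmosomes, had 5.85 and 10.3 CPM with PTBP1 siRNA, 5.87 CPM with DNMT3B-L siRNA and 9.95 CPM with control siRNA. The network-forming collagen COL8A2 had 5.44 and 2.72 CPM with PTBP1 siRNA, 7.25 CPM with DNMT3B-L siRNA and 7.60 CPM with control siRNA. For COL8A2 the interval of PTBP1 siRNA replicate 2 lay apart from those of all other libraries. That of replicate 1 lay apart from the control siRNA interval as well, but overlapped that of DNMT3B-L siRNA. COL12A1, which coats fibrils, had 107 and 127 CPM with PTBP1 siRNA, 149 CPM with DNMT3B-L siRNA and 122 CPM with control siRNA, and of the 6 collagens averaging at least 100 CPM it alone was highest with DNMT3B-L siRNA.

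VTN gave the largest difference among the ligands. VTN, the gene of vitronectin, a ligand of the ITGAV integrins made mainly by the liver (chromosome 17, 28367276 to 28373091, minus strand, GRCh38), had 7.31 and 7.21 CPM with PTBP1 siRNA, 1.61 CPM with DNMT3B-L siRNA and 15.5 CPM with control siRNA. These are 176, 167, 36 and 350 read pairs, and all 3 targeting libraries lay below the control, at 47.0%, 46.4% and 10.4% of it. The PTBP1 siRNAs agreed within counting error, with a ratio of 1.01 between them (95% interval 0.815 to 1.26). The log2 fold change was -2.66 (SE 0.39) for DNMT3B-L siRNA against control siRNA, with a limma adjusted p of 0.402 and an adjusted p of 0.00557 from DESeq2. It was -1.003 (SE 0.34) for PTBP1 siRNA against control siRNA and 1.66 (SE 0.34) for PTBP1 siRNA against DNMT3B-L siRNA, with limma adjusted p of 1.0 and 0.411. VTN had the smallest unadjusted p of all 14149 genes in the DNMT3B-L siRNA comparison with control. The exons of VTN overlap those of AC002094.3 over 13.6% of their length in GENCODE v29.

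THBS1, the matricellular protein thrombospondin-1, had 152 and 155 CPM with PTBP1 siRNA, 178 CPM with DNMT3B-L siRNA and 118 CPM with control siRNA. Its PTBP1 siRNA libraries agreed closely, and all 3 targeting libraries lay above the control. TNC, the gene of tenascin-C, had 95.7 and 79.7 CPM with PTBP1 siRNA, 49.6 CPM with DNMT3B-L siRNA and 81.7 CPM with control siRNA, and differed between PTBP1 siRNA and DNMT3B-L siRNA by a log2 fold change of 0.81 (SE 0.31, limma adjusted p = 0.856). FN1 had 5.98 and 6.82 CPM with PTBP1 siRNA, 5.73 CPM with DNMT3B-L siRNA and 7.51 CPM with control siRNA. Of 8 further matricellular and fibril-associated genes, which are not members, 6 had a log2 ratio to control above 0 with PTBP1 siRNA replicate 1, but 2 with replicate 2 and 2 with DNMT3B-L siRNA (medians of 0.27, -0.18 and -0.25), and limma passed 0. The 2 above 0 with replicate 2 and DNMT3B-L siRNA were CYR61 and CTGF. CYR61 had 334 and 356 CPM with PTBP1 siRNA, 422 CPM with DNMT3B-L siRNA and 245 CPM with control siRNA, and CTGF had 23.2 and 64.2 CPM with PTBP1 siRNA, 37.3 CPM with DNMT3B-L siRNA and 22.03 CPM with control siRNA. With replicate 1 CTGF was within counting error of the control library (ratio 1.06, 95% interval 0.933 to 1.19). FBN1, the fibrillin-1 gene, was at 21.4% of the control with replicate 2, and THBS3 at 38.0% with DNMT3B-L siRNA.

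Genes that act on collagen or inside the cell on integrins were compared as background lists. Of 17 collagen processing genes, 12 had a log2 ratio below 0 with DNMT3B-L siRNA (median -0.24), beside 9 and 11 with PTBP1 siRNA replicates 1 and 2, and limma passed 0. LOXL2, which crosslinks collagen IV, had 642 and 576 CPM with PTBP1 siRNA, 290 CPM with DNMT3B-L siRNA and 501 CPM with control siRNA. BMP1, which cleaves procollagens, had 191 and 125 CPM with PTBP1 siRNA, 81.8 CPM with DNMT3B-L siRNA and 159 CPM with control siRNA. PLOD2, a collagen lysyl hydroxylase, had 814 and 323 CPM with PTBP1 siRNA, 439 CPM with DNMT3B-L siRNA and 653 CPM with control siRNA. LOXL2 and BMP1 were thus lowest with DNMT3B-L siRNA, and PLOD2 with PTBP1 siRNA replicate 2. LOXL2 was named after its values had been seen. Of 4 matrix proteases and inhibitors, 2 were below 0 with DNMT3B-L siRNA (median -0.02), beside 3 and 2 with PTBP1 siRNA replicates 1 and 2. Of 19 integrin adaptors and kinases, 11 were below 0 with DNMT3B-L siRNA (median -0.04), beside 8 with each PTBP1 siRNA, and limma passed 0. In the epithelial markers, 3 of 5 were below 0 with PTBP1 siRNA replicate 1 (median -0.01) and 5 of 5 with replicate 2 (median -1.14). With DNMT3B-L siRNA 4 of 5 were below 0 (median -0.18). The exception, EPCAM, had 3.69 and 2.24 CPM with PTBP1 siRNA, 11.6 CPM with DNMT3B-L siRNA and 3.73 CPM with control siRNA. These markers thus moved in both directions with DNMT3B-L siRNA, and their part in the members' values was not tested.

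Short sequences in the 3′ UTRs of the members were printed because, in each targeting library, genes that hold a certain word of 7 bases were lower as a class. Across 10518 genes the word with the lowest t statistic was CTGCACA for PTBP1 siRNA replicate 1, held by 18.1% of 3′ UTRs. It was AAGATCA for replicate 2 (15.7%) and AACAACA for DNMT3B-L siRNA (15.7%). Their t statistics were -22.8, -19.1 and -17.2, in the same order. Some word is lowest in any library, and the same search in the control siRNA library gave CTACCTC, at -5.0. The statistic came from a regression across genes of each library against the mean of the other libraries, not against control siRNA alone. The words were chosen from these same values and searched on the sense strand only. In the members printed here no site of 1 word overlapped a site of another. The 4 sites of members at least 2-fold lower in the library of that word are given with the word in capitals, from GENCODE v29 transcripts on GRCh38.
COL4A4 (first site, chr2:227007133-227007162, minus strand): ttaagcaaatgCTGCACAgatggatttgtt
COL4A4 (second site, chr2:227006306-227006335, minus strand): cccaggagagcCTGCACAgcttcttgcact
COL5A1 (chr9:134843490-134843519, plus strand): ccaaggactctAAGATCAatgcacgtcact
COL8A2 (chr1:36096753-36096782, minus strand): tacaggccagaAAGATCAacctctgtgaag

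Members that hold a word lay on both sides of the control library. CTGCACA was held by 7 of 52 members, whose median log2 ratio with PTBP1 siRNA replicate 1 was -0.29, against 0.12 for the 45 without it, and by the 1 member past 2-fold lower, COL4A4. AAGATCA was held by 6 members, with a median of -0.33 with replicate 2 against -0.11 for the other 46, and by 2 of the 5 members past 2-fold lower. AACAACA was held by 3 members, with a median of -0.24 with DNMT3B-L siRNA against -0.36 for the other 49, and by 0 of the 3 members past 2-fold lower, VTN, COL5A1 and ITGAX. With DNMT3B-L siRNA the median was thus lower in the members without the word than in the 3 with it. Over all 10518 genes searched, the medians with and without CTGCACA were -0.15 and 0.05 with replicate 1. They were -0.14 and 0.04 for AAGATCA with replicate 2, and -0.06 and 0.07 for AACAACA with DNMT3B-L siRNA. Choosing the words from these values favours a lower median in the holders. The 3′ UTR used was the longest annotated for any transcript of a gene, which need not be that of the main RNA. The COL4A2 site lies far inside the gene, which ends at position 110513209. The ITGB2 site of AACAACA, at 44899102, also lies far from the gene's 3′ end at 44885953. ITGB2 has the value of -0.24 that is the median of the holders. Both sites may lie outside the 3′ UTR of most RNA counted. For comparison, 1 member per word that holds it and yet lay above the control is shown. Also above the control, but not printed, were LAMC3 (CTGCACA, log2 ratio 0.15 with PTBP1 siRNA replicate 1) and ITGA1 (AAGATCA, 0.45 with replicate 2).
COL6A1 (chr21:46004245-46004274, plus strand, log2 ratio 0.45 with PTBP1 siRNA replicate 1): gctagtgtcacCTGCACAgggccctctgag
COL4A2 (chr13:110359965-110359994, plus strand, log2 ratio 0.22 with PTBP1 siRNA replicate 2): attgctggttgAAGATCAtttatcagcact
THBS1 (chr15:39597422-39597451, plus strand, log2 ratio 0.58 with DNMT3B-L siRNA): tatgtacaaggAACAACAataaatcatatg
These letters are matches and not shown to be sites of any factor.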

How the data were processed

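Libraries were sequenced as paired reads of 100 bases. According to the submitters' processing notes, the tools were HTSeq 0.6.1, HISAT2 2.1.0 and bcl2fastq 2.19.1, and the genome was GRCh37 (hg19). In the sources used here, annotation and strand use are not given. The authors deposited 1 table of CPM values per library, of which 98.99% to 99.2% were whole read pairs (tolerance 0.001). Values worth 0.5 of a pair, 176 to 223 per table, were set to 0 in the recovered read pairs. They were kept as deposited in the CPM values.

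The members and lists were chosen with earlier results of these data known. The main test was limma 3.58.1 (R 4.3.3, trend option) on log2(CPM + 1) in 1 fit by group, adjusted over all 14149 genes with an average of at least 1 CPM. It had 1 residual and 10.2 prior degrees of freedom. On this scale the change of low genes is understated. Because the unit was CPM, edgeR 4.0.16 (quasi-likelihood) and DESeq2 1.42.0 served as alternatives on the recovered read pairs. Other alternatives were pseudocounts of 0.1 and 5, other filters, TMM factors, quantile normalization and leaving out each PTBP1 siRNA library. The scripts were tested on simulated data. Named genes were members past the test, those past 2-fold at an average of at least 5 CPM, the 2 most abundant of each role, the 6 with the largest fold change each way, the ligands, the targets and up to 4 genes of each list. Others were named after their values were seen. Intervals of 95% are exact (Poisson, or conditional binomial for ratios) and cover counting error only. Lengths, positions and 3′ UTRs came from GENCODE v29 on GRCh38, another build than that of the files, matched by gene ID (52 of 52 members). Words of 7 bases (14743 held by at least 200 genes) were searched in the longest 3′ UTR of genes with an average of at least 5 CPM. They were ranked by the t statistic of a regression across genes adjusted for 3′ UTR length and GC content. The value regressed was log2(CPM + 1) in a library minus its mean over the other libraries. Markers missing from a table were not analysed here, and the values of 1 member are not reported here.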

Additional observations from a re-analysis of the deposited data

How the results depend on the processing

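Of the counts and medians recomputed under the alternatives, 109 stayed close to the main value, 11 were larger and 9 were smaller. Close meant within 1.5 times for counts, and counts of 0 in both settings were included. For medians it meant a move smaller than the standard deviation of the members' log2 ratios, which is a wide limit. With a pseudocount of 0.1, 3 members were 2-fold lower with PTBP1 siRNA replicate 1, 1 higher with replicate 2 (COL7A1), 6 lower and 1 higher with DNMT3B-L siRNA, and 1 higher (COL7A1) and 1 lower (VTN) with both PTBP1 siRNAs. With a pseudocount of 5, 0 members were 2-fold lower with replicate 1, 1 with replicate 2 and 1 in replicate 1 against replicate 2. With no filter on low values, 4 genes of the families lay below the other libraries with both PTBP1 siRNAs. Genes called for PTBP1 siRNA against control siRNA numbered 0 with a pseudocount of 5, no filter, quantile normalization or edgeR, and 2 with DESeq2. For PTBP1 siRNA against DNMT3B-L siRNA they numbered 0 with no filter or quantile normalization and 5 with DESeq2. For DNMT3B-L siRNA against control siRNA, DESeq2 called 1 gene, the member VTN (log2 fold change -3.30). For PTBP1 siRNA against control siRNA, the log2 fold change ranged over the libraries left out from -1.42 (without replicate 1) to 0.087 (without replicate 2) for ITGB4 and from -1.04 to 1.11 for COL5A1. The cause of these differences was not tested. The median log2 ratio with DNMT3B-L siRNA stayed between -0.37 and -0.23 over the scalings and filters tried. No paired analysis was possible because replicate numbers exist in the PTBP1 siRNA group alone. The single DNMT3B-L siRNA and control siRNA libraries limit every comparison, and genes of a few CPM carry wide counting intervals.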
